A study of Mus musculus with 123 samples.

Results

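Among the 33 single neurons sequenced from the injured side 7 days after sciatic nerve transection (SNT) and kept after removal of outliers, 21 held less than 100 counts per 1000000 (CPM) of Atf3, a transcription factor that sensory neurons switch on when their axon is cut. These 21 cells, called spared here, were compared with all 14 kept neurons of the control side. They were chosen by a measured value, Atf3, out of 123 libraries in the series. Their Atf3 level is therefore a description and not a result. It ran from 0 to 13.9 CPM, with 13 cells at 0, and the next cell of the injured side held 704 CPM. The 12 cells above the limit reached 1778 CPM, and the control-side cells lay between 0 and 28.997 CPM with 2 cells at 0. Limits of 50 or 200 CPM chose the same 21 cells.

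All of these neurons came from 2-month-old C57BL/6 mice whose right sciatic nerve was cut at mid-thigh, and the control side is the other side of operated mice. Lumbar dorsal root ganglia (DRGs) L3 to L5 were dissociated, neurons were picked by hand, and each cell was amplified by Smart-seq2 and read in pairs of 75 bp. The labels give 8 spared cells from females and 13 from males, against 7 and 7 on the control side. Both sexes on a side mean at least 2 mice, but the labels tie no cell to a mouse and name no mice without surgery, so each side was treated as 1 sample and no test was made. Every value below is a description, and errors are the SD over cells.

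A DRG at these levels sends only part of its axons through the sciatic nerve, so a cut at mid-thigh leaves neighbouring uninjured neurons in the same ganglion. Peptidergic nociceptors make the peptide CGRP from Calca and carry the sodium channel Scn10a. Large myelinated neurons are rich in the neurofilament Nefh, and among them the proprioceptors, which report muscle stretch, are known for Pvalb, Runx3, Etv1 and Spp1. Axotomised neurons switch on a regeneration programme with Atf3, Jun, Sox11, Gap43 and Sprr1a.

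Libraries of the spared cells were shallower than those of the control side. They held 261351 to 836279 counts (median 513059), against 510014 to 1018545 (median 738947). Genes at 10 CPM or more numbered 8424 per spared cell and 8498.5 per control cell (medians). The summed level of 4 Y-linked genes matched the sex label in every library but 1 of the 35. Apart from that library, Xist was at least 51.7 CPM in female-labelled and at most 15.3 CPM in male-labelled libraries. Control replicate 7, labelled female, had Xist at 0 and 83.3 CPM over Ddx3y, Eif2s3y, Uty and Kdm5d together. The counts of genes beyond 2-fold in both sexes are therefore also given with it counted as male. Other values for females include it unless its removal is stated. Apoe, a transcript of satellite glia, was either at most 91.0 CPM or at least 2121 CPM in a compared cell. It was high in 10 of 21 spared and 10 of 14 control cells, in 1 of 8 spared females and 9 of 13 spared males. Summed over 10 glial markers, the level was 507 to 13156 CPM (median 1951.5) in spared and 1246 to 9825 CPM (median 5221) in control cells. Of 11 immune markers, none reached 10 CPM in a control cell, and C1qa, Aif1, Cd68 and Cd3e did not in any spared cell. The immune sum had a median of 5.13 CPM in spared cells and its highest value, 760 CPM, in 1 spared cell, which also held 94.4% of the S100a8 signal. Vessel, fibroblast and blood markers summed to medians of 38.2 and 36.7 CPM. The part of glial RNA, depth and sex in the comparisons was not tested beyond the splits given with them.

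The 2 sides did not hold the same kinds of neuron. Calca was either at least 2064 CPM or at most 155 CPM, and Pvalb either at least 614 CPM or at most 17.2 CPM, so the cells fell into Calca-high, Pvalb-high and remaining cells. These kinds were defined after their values were seen. The spared cells comprised 10 Calca-high (47.6%, exact 95% interval 25.7 to 70.2), 6 Pvalb-high (28.6%, 11.3 to 52.2) and 5 remaining cells. The control side comprised 6 Calca-high and 8 remaining cells and no Pvalb-high cell, which allows a share of up to 21.4% on the limit of 3 counts. Intervals cover counting error only. None of the 12 cells with high Atf3 was Calca-high (0%, up to 25% on the same limit).

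The 6 Pvalb-high cells held 614, 727, 820, 878, 885 and 937 CPM of Pvalb, in 3 females and 3 males. They also held the other proprioceptor genes at high levels. Runx3 was 76.3 to 136 CPM in them and at most 1.92 CPM in control cells, Etv1 was 925 to 1518 CPM against 6.21 to 164 CPM, and Spp1 was 432 to 3072 CPM against 0 to 205 CPM. No Pvalb-high cell overlapped a control cell for any of these genes. Calca was at 0 in all 6.

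Calca-high cells of both sides also held Scn10a, and the plot of marker genes shows these cells as like blocks on the 2 sides. Scn10a reached 10 CPM in 10 of 21 spared (47.6%, 25.7 to 70.2) and 7 of 14 control cells (50.0%, 23.04 to 76.96). P2rx3, the ATP receptor of nonpeptidergic nociceptors, reached 10 CPM in 9 of 21 spared and 8 of 14 control cells. Mrgprd, the receptor that defines many nonpeptidergic nociceptors, was at 0 in all 21 spared cells (0%, up to 14.3% on the limit of 3 counts). It was present in 1 control cell, at 1588 CPM. Th, Trpv1 and Tac1 were high in mean only through few cells: 1 spared cell held 98.2% of the Th and 80.4% of the Trpv1 of the group, and 1 held 59.7% of the Tac1. Sst and Nppb, peptides of itch neurons, reached 10 CPM in no cell of either side.

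**Figure D1:**
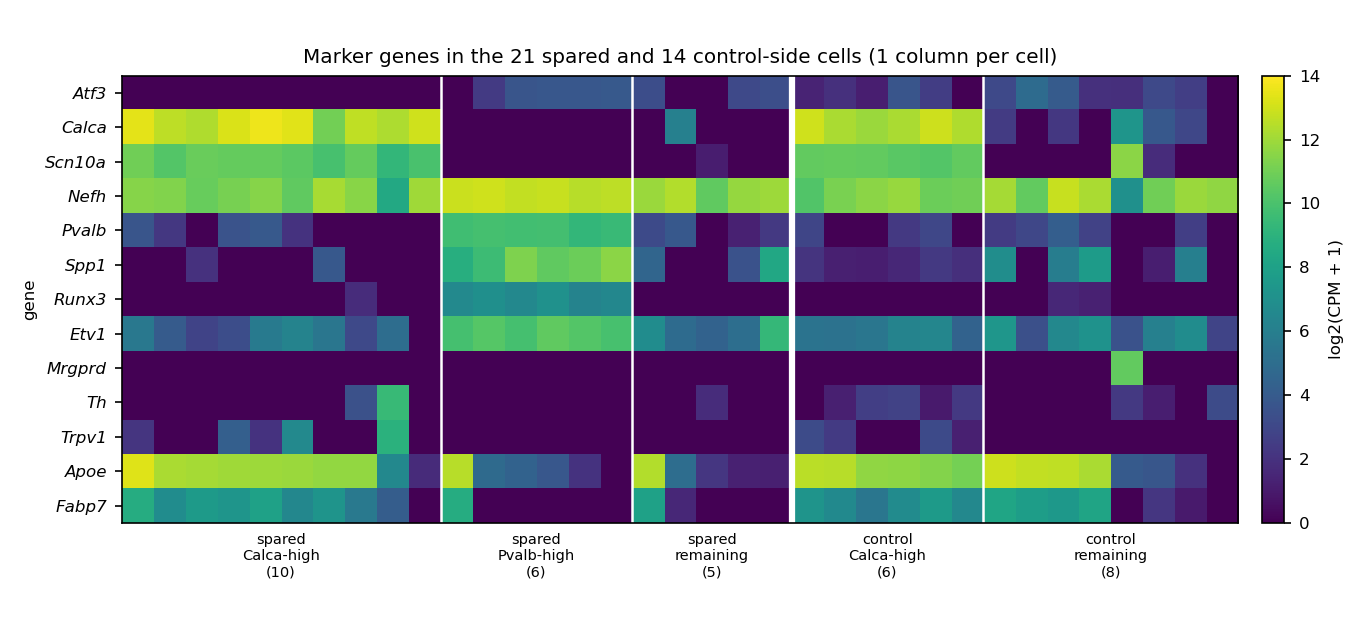
Levels of 13 marker genes as log2(CPM + 1), 1 column per cell, for the 21 spared cells (left of the thick white line) and the 14 control-side cells, sorted by kind and within a kind by Apoe. Pvalb, Runx3 and Etv1 are high together in 6 spared cells and in no control cell. Apoe reaches 100 CPM in 10 cells of each side and Fabp7 in 8 of each.

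Several genes switched on by axotomy, such as Sprr1a, Npy and Sox11, were near control levels in the spared cells. Atf3, by which the cells were chosen, belongs to the same programme. Low levels of its other genes are therefore a description and not a result. Sprr1a, a cornified-envelope protein made by regenerating neurons, was 0 to 3.126 CPM (median 0) in spared and 0 to 2.78 CPM (median 0) in control cells, against 786 to 4867 CPM in the Atf3-high cells. Npy, a peptide switched on by axotomy, was seen in 1 spared cell, at 6.49 CPM, and in no control cell, and Atf3-high cells held 9.28 to 6483 CPM. The spared and control cells overlapped in both genes, and the Atf3-high cells lay above all of them.

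Sox11, a transcription factor of axon regrowth, was 12.9 ± 13.6 CPM (SD, n = 21) in spared, 15.4 ± 16.96 CPM (SD, n = 14) in control and 390 CPM in Atf3-high cells. Jun ran from 1.196 to 250 CPM (median 93.8) in spared and from 14.6 to 378 CPM (median 127) in control cells, and from 267 CPM up in Atf3-high cells. Gap43, a growth-cone protein, had medians of 300.2 and 27.2 CPM, but both sides ranged from 0 to about the same height, 1329 and 977 CPM. Flrt3, Gadd45a and Cttn differed by log2 ratios between -0.36 and 0.05. A log2 ratio here is that of the mean CPM + 1 of the spared over the control side.

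Of 28 injury and regeneration genes, 17 had a mean of at least 10 CPM on either side. Their median log2 ratio was -0.23, beside -0.04 over all 9606 genes at that level, and 3.05 for the same 17 genes in Atf3-high over control cells, which share the control cells. The spared and Atf3-high cells were split by Atf3, a gene of the list of 28, so this contrast is a description only. Gal and Adcyap1, both peptides induced by injury, were higher beyond 2-fold in the mean, with 87.2% and 67.6% of the signal in 1 cell each. Hspb1 and Csf1 were lower beyond 2-fold. Csf1, the cytokine by which injured neurons call microglia, was 0 to 37.98 CPM (median 1.48) in spared and 0 to 37.035 CPM (median 20.6) in control cells, a log2 ratio of -1.27, and at least 56.9 CPM in every Atf3-high cell. Hspb1, a small heat shock protein, was 3.181 to 1129 CPM (median 509) and 23.9 to 1450 CPM (median 1019). The 6 Pvalb-high cells held at most 61.5 CPM of Hspb1.

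**Figure D2:**
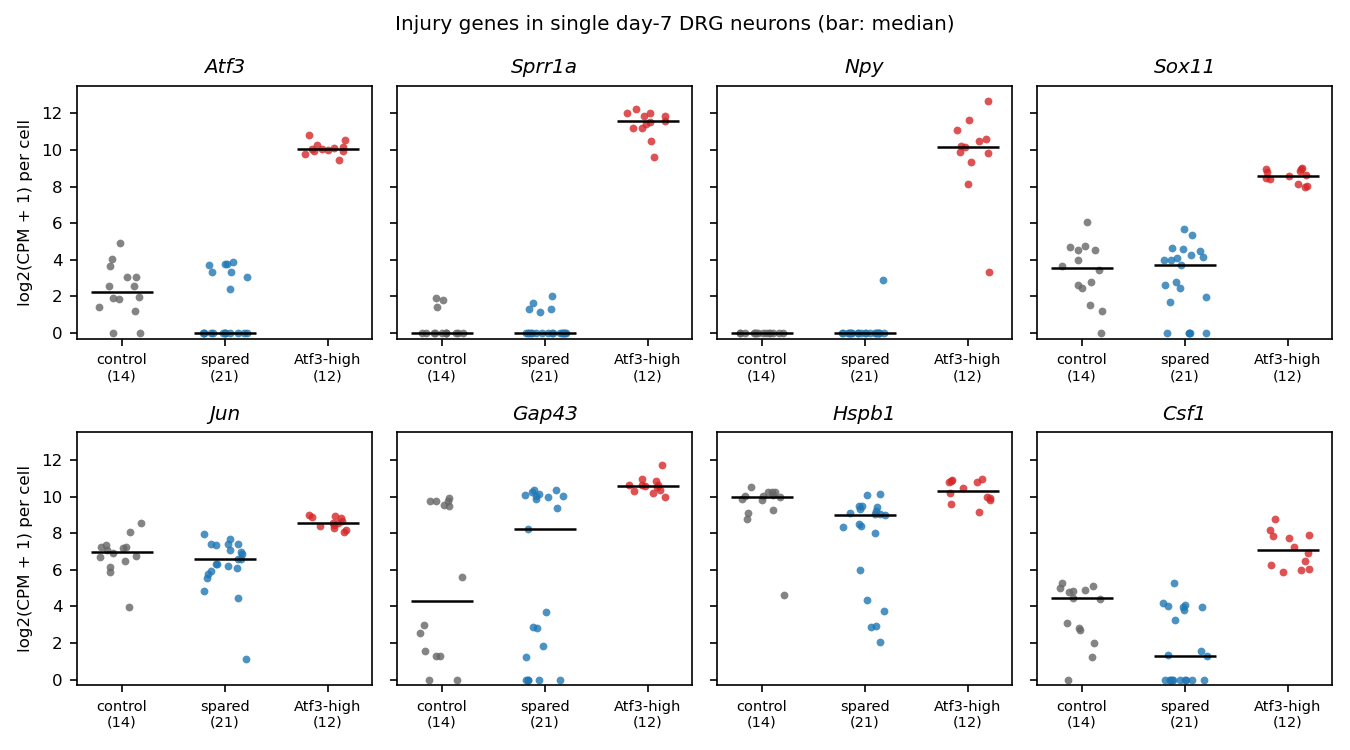
Levels of 8 injury genes in single day-7 neurons as log2(CPM + 1), 1 point per cell, for 14 control-side, 21 spared and 12 Atf3-high cells, with bars at the median. Atf3 and Sprr1a in the spared cells stay at or below 13.9 and 3.126 CPM, and Csf1 and Hspb1 have lower medians in spared than in control cells.

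Early response genes leaned lower in the spared cells. Of 10 genes 6 were measured, with a median log2 ratio of -0.71. Junb, an AP-1 factor, was 0 to 35.9 CPM (median 17.7) in spared and 7.903 to 88.9 CPM (median 37.3) in control cells, a log2 ratio of -1.18. It was the only one of the 6 beyond 2-fold, and the 2 sides overlapped. Socs3, which dampens cytokine signals, was at a median of 0 in spared (highest 36.6 CPM) and 14.5 CPM in control cells (highest 36.2 CPM), a log2 ratio of -1.23.

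Over all cells, 306 of the 9606 genes were higher in the spared cells beyond 2-fold (3.186%) and 218 were lower (2.27%). Both the females and the males showed the difference beyond 2-fold in 154 of the genes that were higher (1.6%) and 81 that were lower (0.843%). With control replicate 7 counted as male these numbers were 167 (1.74%) and 85 (0.885%). Among the 3 spared kinds, 176 of the 306 higher genes (57.5%) had their highest mean in the Pvalb-high cells and 65 (21.2%) their lowest. Of the 218 lower genes, 142 (65.1%) had their lowest mean there and 17 their highest. Over all 9606 genes the Pvalb-high mean was the highest in 33.4% and the lowest in 42.3%. Without the Pvalb-high cells, 283 of 9634 genes were higher (2.94%) and 162 lower (1.68%), and 152 of the 306 and 112 of the 218 were still beyond 2-fold.

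The 12 largest higher genes of the naming rule had log2 ratios of 2.88 to 5.54, and 11 of them were highest in the Pvalb-high cells. They were led by Pvalb (5.54), Sv2a (5.08) and Klhdc8a (4.26), with Heg1, Gm13629, D430041D05Rik, Spp1, Plekhg1, Kcnc1, Ndst4, Efhd2 and Cux2. Only 6 of the 12 were still beyond 2-fold without the Pvalb-high cells. Sv2a, a synaptic vesicle glycoprotein, was 0 to 200.03 CPM (median 1.49) in spared and 0 to 3.98 CPM (median 0) in control cells. Over the summed counts it was 52.7 CPM (exact Poisson interval 48.6 to 57.1) against 0.663 CPM (0.267 to 1.37). Poisson intervals here cover the counting of reads only, amplified copies included, and not the spread between cells or mice. Kcnc1, a potassium channel of fast-spiking neurons, was 6.25 to 867 CPM (median 83.4) in spared and 0 to 79.6 CPM (median 24.9) in control cells. Its log2 ratio was 2.96 over all cells and 1.13 without the Pvalb-high cells.

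The 12 largest lower genes stayed beyond 2-fold without the Pvalb-high cells in 12 of 12 cases. Their log2 ratios ran from -1.90 to -4.36, in the order Mmp25, Gm7271, Pdlim2, Tgoln2, Tpd52l1, Tagln2, Synpr, Cntn4, Lxn, Kcng4, Mfge8 and Htr4. Within kinds, 11 were beyond 2-fold in Calca-high cells (Synpr was at -0.66) and 10 in remaining cells (Kcng4 -0.97, Mfge8 -0.18). Control cells varied widely for Mmp25 (27.7 ± 56.1 CPM, SD, n = 14), Gm7271 (78.4 ± 199 CPM), Pdlim2 (35.03 ± 65.4 CPM) and Synpr (126 ± 255 CPM). In the 11 spared and 7 control cells with less than 100 CPM of Scn10a, Pdlim2 was at 0.31. Tagln2, an actin-binding protein, was 0 to 371 CPM (median 1.48) in spared and 0 to 1035 CPM (median 453) in control cells, a log2 ratio of -2.32. Over the summed counts it was 76.7 CPM (exact Poisson interval 71.7 to 82.0) against 363 CPM (351 to 374), intervals that again leave out the spread between cells. Lxn, an inhibitor of carboxypeptidases, was 0 to 359 CPM (median 24.4) in spared and 3.83 to 949 CPM (median 306) in control cells, a log2 ratio of -2.07. Both genes overlapped between the sides, and no gene separated all 21 spared from all 14 control cells.

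Comparing like with like, the 10 spared and 6 control Calca-high cells differed beyond 2-fold in 678 higher (7.09%) and 290 lower (3.03%) of 9560 genes. The 8 spared and 3 control Calca-high cells of males alone gave the same call for 440 of the 678 and 222 of the 290 (76.6%), with 7.207% of all genes higher and 4.6% lower. The 2 spared and 3 control cells labelled female, with control replicate 7 among the latter, gave it for 424 and 154 (53.1%). There, 12.5% of all genes were higher and 6.52% lower. These cells are among those that gave the calls. Leaving out control replicate 7 kept 574 and 218 (6.46% and 2.77% of all genes beyond 2-fold), and taking only the 8 and 6 Calca-high cells with high Apoe kept 468 and 231 (6.28% and 3.342%). Atf3 was at 0 in all 10 spared Calca-high cells and in 1 of the 6 control cells. The 10 spared cells had a median of 450209 counts, against 739070 in the control cells.

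Every spared Calca-high cell lay above every control Calca-high cell for 11 of the genes beyond 2-fold (0.115% of 9560) and below every one for 14 (0.146%). Marcks, an actin-linked substrate of protein kinase C, was 34.4 to 172 CPM (median 54.1) against 8.94 to 20.9 CPM (median 16.1), a log2 ratio of 2.35. Cpne3, a calcium-dependent membrane-binding protein, was 31.3 to 127 CPM against 4.91 to 22.4 CPM. The others above were Atp8a1, Celf2, Dynlt1a, Fam171a1, Gucy1a2, Lpgat1, Rab12, Ubn1 and Zbtb22.

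On the lower side, Tagln2 was 0 to 371 CPM (median 44.4) in spared and 422 to 563 CPM (median 512) in control Calca-high cells. Htr3b, a subunit of the serotonin-gated ion channel, was 4.47 to 112 CPM (median 52.6) against 120 to 278 CPM (median 135), a log2 ratio of -1.41. Coro1a, an actin-binding coronin, was 30.6 to 193 CPM (median 139) against 218 to 381 CPM (median 276). The groups did not overlap in these genes. The others were Abhd2, Brms1, Csdc2, Ebp, Fbxo2, Mfge8, Mta3, N28178, Pkib, Susd2 and Tifa, and Ebp is an enzyme late in cholesterol synthesis. These 25 genes were chosen after their values were seen. Nefl, the light neurofilament chain, was 1278 to 7192 CPM (median 3917) against 4931 to 16264 CPM (median 8082), with overlap.

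The 5 remaining spared cells and 8 remaining control cells differed the other way in number, with 186 genes higher (1.96%) and 487 lower (5.14%) of 9466. One of these control cells was the Mrgprd cell. Apoe was high in 1 of the 5 spared and 4 of the 8 control cells, the summed glial markers had medians of 1544 and 4411 CPM, and 9 of the 10 glial markers had ratios below 0, with a median of -1.17. The part of glial RNA in the remaining cells was not tested. The same direction beyond 2-fold in both Calca-high and remaining cells was seen for 52 higher (0.587%) and 42 lower (0.474%) of 8863 genes measured in both. Among them, 19 higher and 23 lower genes also kept the direction in at least 75% of the spared and control cell pairs of each kind. No share of all genes is given for this pair rule, so these counts are a description only. The genes named next were taken from these after their values were seen.

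Efhd2, a calcium-binding regulator of actin, was 33.5 to 291 CPM (median 115) in spared Calca-high cells and 1.39 to 35.3 CPM (median 12.2) in control ones, a log2 ratio of 3.06. In the remaining spared cells it was 1.48, 1.95, 2.63, 3.85 and 199 CPM, and in control cells 0 to 27.1 CPM (median 0.663), so that its ratio of 3.00 there rests on 1 cell. Pam, the enzyme that amidates neuropeptides, was 61.0 to 957 CPM (median 121) against 19.5 to 93.5 CPM (median 42.1) in Calca-high cells. In the remaining spared cells Pam was 21.8, 85.8, 91.9, 143 and 189 CPM, against 25.9 to 91.7 CPM (median 28.3). Camk2n1, an inhibitor of CaM kinase II, and Sema5a, a guidance semaphorin, had log2 ratios of 2.68 and 1.801 in Calca-high and 2.02 and 5.198 in remaining cells, where 1 spared cell held 92.1% of the Sema5a.

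Among the lower genes, Junb was 0 to 32.5 CPM (median 18.5) in spared and 7.903 to 58.3 CPM (median 38.9) in control Calca-high cells. In the remaining spared cells Junb was 0, 0, 7.88, 14.1 and 17.7 CPM, and in control cells 9.93 to 88.9 CPM (median 25.5). Bcl6, a transcriptional repressor, was 0 to 84.4 CPM (median 26.9) against 50.1 to 110 CPM (median 59.1) in Calca-high cells. It was 0, 4.78, 7.88, 11.8 and 83.4 CPM in the remaining spared cells, against 8.28 to 145 CPM (median 47.4). Il4ra, the interleukin 4 receptor chain, Agtr1b, an angiotensin II receptor, and Bambi, a decoy of TGF-beta receptors, were lower beyond 2-fold in both kinds too, with log2 ratios of -1.27 to -2.01 in Calca-high and -1.70 to -3.39 in remaining cells. Htr4, a serotonin receptor, was at 0 in all 5 remaining spared cells and 0 to 131 CPM (median 5.33) in remaining control cells.

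**Figure D3:**
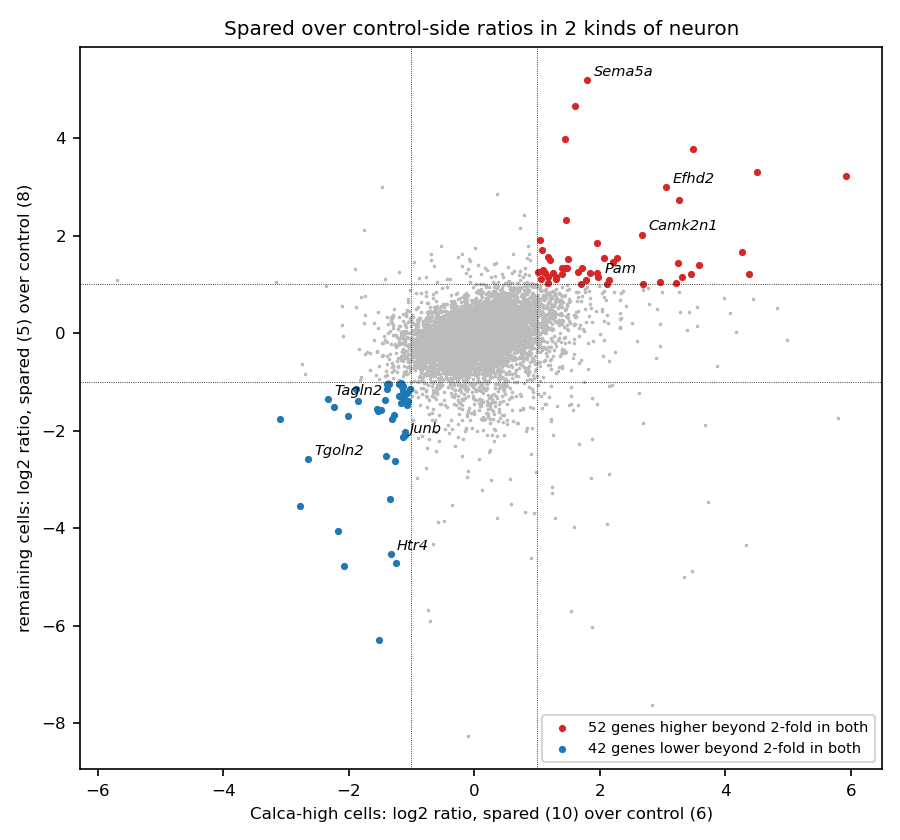
Log2 ratio of mean CPM + 1, spared over control side, in Calca-high cells (10 over 6, horizontal axis) and in remaining cells (5 over 8, vertical axis), 1 point per gene. Dotted lines mark 2-fold, the 52 genes higher in both kinds are red and the 42 lower in both are blue, and most genes lie inside the lines.

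**Figure D4:**
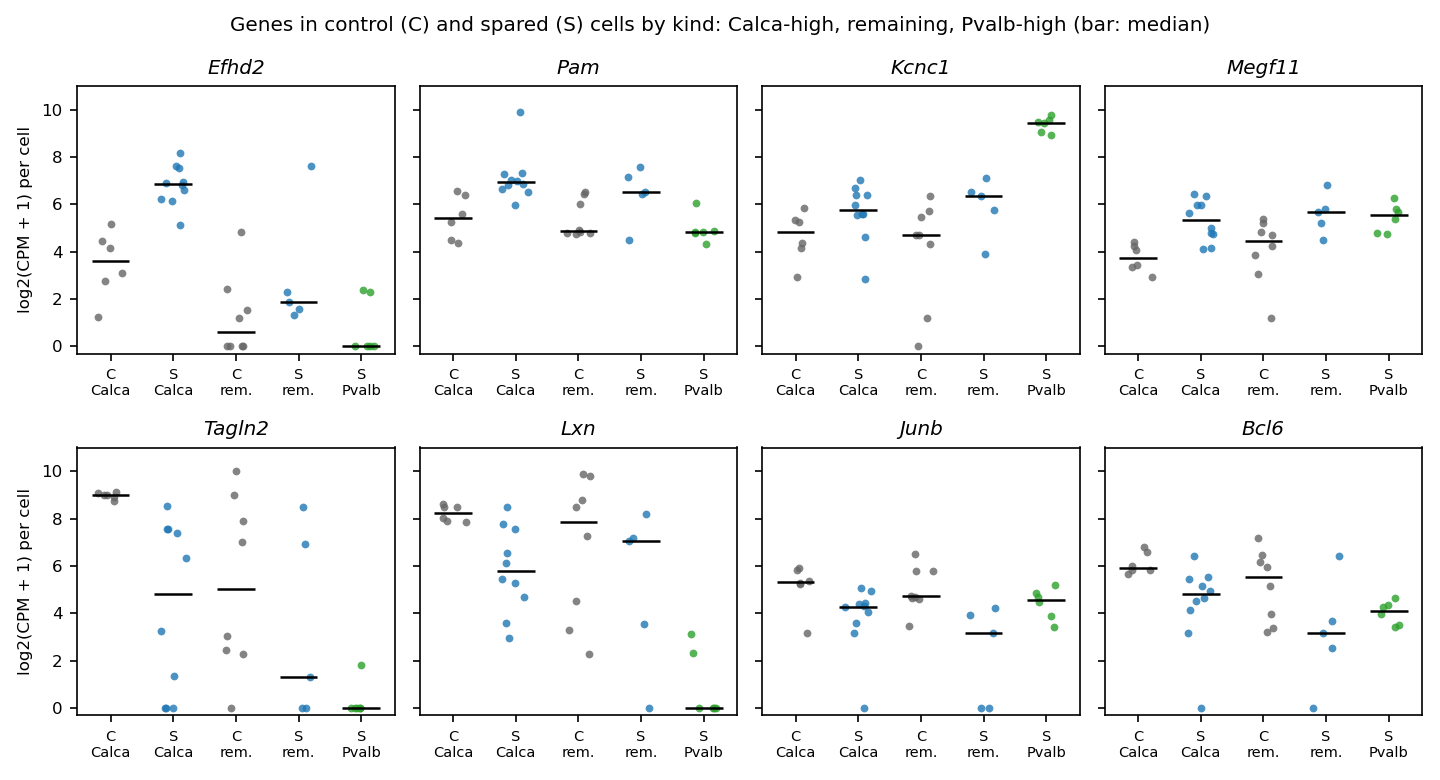
Levels of 8 genes as log2(CPM + 1), 1 point per cell, in control (C) and spared (S) cells that were Calca-high (Calca), remaining (rem.) or Pvalb-high (Pvalb), with bars at the median. Tagln2 in the 6 control Calca-high cells sits between 422 and 563 CPM, above all 10 spared Calca-high cells, and Efhd2 is high in the spared Calca-high cells.

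Genes of cholesterol synthesis were lower together in the spared cells. These enzymes turn acetyl-CoA into cholesterol through mevalonate and squalene, and their transcription is known to be set by SREBP factors with help from NF-Y, which binds CCAAT boxes. All 16 measured genes had ratios below 0, beside 53.9% of all 9606 genes. Their median log2 ratio was -0.69 and 3 were beyond 2-fold. The list median was -0.97 in females, -0.49 in males, -0.60 in Calca-high and -0.81 in remaining cells. It was -0.39 in cells with high Apoe, -0.99 in cells with low Apoe and -0.65 without control replicate 7. Its median was below 0 both in cells with high and in cells with low Apoe.

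Mvk, mevalonate kinase, was 5.13 to 62.5 CPM (median 19.9) in spared and 34.4 to 98.2 CPM (median 57.7) in control cells, a log2 ratio of -1.23. Mvd, the mevalonate diphosphate decarboxylase, was 0 to 106 CPM (median 21.5) against 23.8 to 158 CPM (median 53.1), a log2 ratio of -1.25. Dhcr7, which makes the last step to cholesterol, was 8.06 to 192 CPM (median 42.1) against 41.7 to 267 CPM (median 112), a log2 ratio of -1.19. In each of the 3 genes the spared cells lay lower in most pairs but overlapped the control cells.

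Sqle, squalene epoxidase (-0.97), Fdps (-0.94) and Fdft1 (-0.93) were close to 2-fold, and Srebf2, the gene of SREBP2 itself, differed least (-0.27). Summed over the 16 genes, the level was 1744 to 3824 CPM (median 2157) in spared and 2091 to 5833 CPM (median 3318) in control Calca-high cells. The 6 Pvalb-high cells held 481 to 1700 CPM (median 760), the lowest of the kinds. Atf3-high cells had a median of 2710 CPM.

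**Figure D5:**
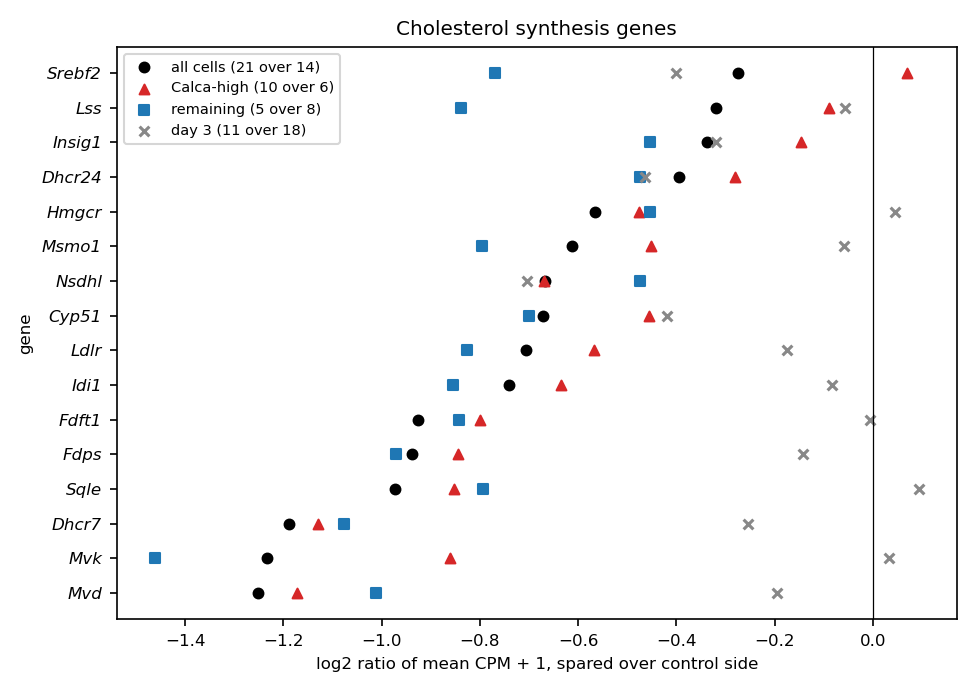
Log2 ratio of mean CPM + 1, spared over control side, for 16 cholesterol synthesis genes at day 7 in all cells, in Calca-high and in remaining cells, and at day 3. All 16 black points lie below 0, from -1.25 (Mvd) to -0.27 (Srebf2), and the day-3 crosses lie nearer to 0 for most genes.

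Upstream sequences of these genes were read for CCAAT boxes. They are RefSeq's for the build GRCm38.p6, which differs from the build of the deposited tables, and 10 of the 16 genes were matched. In the 250 bases before the first listed start, CCAAT on either strand was found in 9 of the 10 genes, beside 34.5% of 27025 genes. The sterol-type spelling TCACNCCAC was found in 0 of 10 and in 1.04% of all genes. Several related spellings were looked at before these were kept. Mvk, Mvd and Idi1 are shown because they catalyse nearby steps of the mevalonate pathway and hold more than 1 match. Capitals mark CCAAT or its reverse complement ATTGG, read 5′ to 3′ on the gene's strand. The stretch shown for Mvk is at chr5:114444051-114444268 on the plus strand, that in Mvd at chr8:122443423-122443527 on the minus strand and that in Idi1 at chr13:8885516-8885605 on the plus strand.
Mvk: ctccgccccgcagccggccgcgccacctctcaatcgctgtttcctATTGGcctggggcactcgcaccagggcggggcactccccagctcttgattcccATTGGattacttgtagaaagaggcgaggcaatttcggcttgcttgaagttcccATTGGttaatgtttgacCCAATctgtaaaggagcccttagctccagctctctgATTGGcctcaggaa
Mvd: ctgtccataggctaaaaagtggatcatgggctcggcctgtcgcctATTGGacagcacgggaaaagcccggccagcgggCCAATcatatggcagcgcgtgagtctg
Idi1: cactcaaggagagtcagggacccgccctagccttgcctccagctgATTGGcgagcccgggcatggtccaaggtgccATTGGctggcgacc
Mvk holds 5 matches and Mvd and Idi1 hold 2 each. Dhcr7, which was also lower beyond 2-fold, holds none in its window. A match of letters is a description and not a binding site.

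Ion channel genes were mostly near control levels or higher. Of 34 potassium channel genes 7 were higher and 4 lower beyond 2-fold (20.6% and 11.8%, against 3.186% and 2.27% of all genes). Their median log2 ratio was 0.18 over all cells and 0.05 without the Pvalb-high cells. Kcna2, the delayed rectifier of myelinated axons, was 26.9 to 1414 CPM (median 880) in spared and 7.161 to 853 CPM (median 377) in control cells, a log2 ratio of 1.27. It was 1.08 without the Pvalb-high cells, and Atf3-high cells held 34.6 CPM in the mean. Kcnq5, an M-current subunit, had a log2 ratio of 1.46, but -1.32 in females and 2.32 in males.

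Of 11 sodium channel genes 2 were higher (18.2%, against 3.186% of all genes), Scn2a1 (1.08) and the beta subunit Scn3b (1.64). None was lower beyond 2-fold, and the list median was 0.27 over all cells and -0.01 without the Pvalb-high cells. Among 3 HCN channel genes, Hcn2, a pacemaker channel of sensory neurons, was 9.38 to 368 CPM (median 103) in spared and 0 to 117 CPM (median 28.5) in control cells, a log2 ratio of 1.45. Of 13 calcium channel genes 2 were higher (15.4%, against 3.186% of all genes), Cacna1e and Cacng5. In these, 92.0% of the Cacna1e of the spared cells was in 1 cell and 93.5% of the Cacng5 of the control cells in 1 cell. Of 10 TRP, mechanosensory and acid-sensing channels, Trpv1 was higher and Trpv2 and Trpa1 lower, and the Mrgprd cell held 99.6% of the Trpa1 of the control cells.

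Receptors for trophic factors and opioids were lower in part. Of 8 neurotrophin and GDNF receptor genes 3 were lower (37.5%, against 2.27% of all genes), Ret (-1.44), Gfra1 (-1.33) and Gfra2 (-2.05), and Ntrk3 was higher (1.29). The list median was -0.39 over all cells, 0.16 in Calca-high cells and 0.05 without the Pvalb-high cells. Ret, the signalling receptor for GDNF, was 11.04 to 782 CPM (median 75.8) in spared and 1.96 to 1342 CPM (median 344) in control cells. Its ratio was -0.38 in Calca-high and -0.60 in remaining cells, so it was not beyond 2-fold within either kind. Of 4 opioid genes 2 were lower (50.0%, against 2.27% of all genes), with none higher and a median of -1.25. Oprd1, the delta opioid receptor, was 0 to 72.9 CPM (median 0) in spared and 0 to 61.9 CPM (median 19.04) in control cells, with log2 ratios of -1.31 in Calca-high and -1.76 in remaining cells. Oprk1 had a ratio of -1.85 over all cells but 2.77 in Calca-high cells, and 1 spared cell held 95.8% of its signal.

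Of 9 MHC class I and interferon genes 2 were lower (22.2%, against 2.27% of all genes), H2-K1 (-1.05) and H2-D1 (-1.01), with a list median of -0.16. The list median was 0.21 in Calca-high cells, -1.05 in remaining cells and -0.08 without the Pvalb-high cells. H2-Q4, which is outside this list and was chosen after its values were seen, was higher in all (1.2004), Calca-high (1.45) and remaining cells (1.34). Genes of this family are alike in sequence, so reads may be split between them. Of 8 cytokine signalling genes 3 were lower (37.5%, against 2.27% of all genes), Socs3, Osmr and Tnfrsf1a, with a list median of -0.15. That median was 0.19 in Calca-high cells, -0.49 in remaining cells and -0.30 without the Pvalb-high cells. Tnfrsf1a, a receptor for TNF, was 0 to 88.5 CPM (median 5.09) in spared and 0 to 85.9 CPM (median 58.3) in control cells, a log2 ratio of -1.48. The 2 sides overlapped over nearly the whole range.

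Of 17 neurofilament and growth cone genes 3 were higher (17.6%, against 3.186% of all genes), Basp1 (1.42), Marcks (1.75) and Ina (1.25). Ina had 97.1% of the control signal in 1 cell and a ratio of -2.50 without the Pvalb-high cells. Prph, peripherin, was the 1 lower gene (-1.004, 5.88% of the list, against 2.27%). Prph was 347 to 2661 CPM (median 1053) in spared and 1003 to 5465 CPM (median 2045) in control cells, and Avil, advillin, moved alike (-1.04). Among 8 general sensory neuron markers these 2 were the ones beyond 2-fold, and the list median was -0.03. Nefh reached 10 CPM in every cell of both sides.

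Other groups are given by their counts and list medians, beside 3.186% of all genes higher and 2.27% lower beyond 2-fold. Of 14 chaperone and stress genes only Hspa1a was lower beyond 2-fold (list median -0.26), of 22 synaptic vesicle genes Sv2a and Slc17a7 were higher (0.16), and of 7 neuropeptide genes Tac1, Gal and Adcyap1 were higher (0.56). The neuropeptide median was -0.55 in females, -0.75 in remaining cells and 2.44 in cells with low Apoe. Of 15 GABA-A and glutamate receptor genes Gabra3 was higher and Grik1 lower (0.04). None of 9 BCL2 family and caspase genes was beyond 2-fold (0.10). The same held for the 84 respiratory chain genes (0.31), and 1 of 81 ribosomal protein genes, Rps4l, was higher (0.15). Of the 10 large myelinated neuron markers 5 were higher, Pvalb, Ntrk3, Spp1, Runx3 and Etv1 (0.94), and of 5 peptidergic markers Tac1 and Trpv1 were higher (0.56). The peptidergic median was -0.55 in females, 1.40 in males, -1.05 in remaining cells and 3.09 in cells with low Apoe. No gene of the 10 glial markers was beyond 2-fold over all cells, and the list median was -1.57 in females and 0.09 in males.

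Lars2, the mitochondrial leucyl-tRNA synthetase, took a large share of counts, 0.839% to 14.2% (median 4.33%) in spared and 0.151% to 6.81% (median 1.07%) in control cells. In Calca-high cells the medians were 6.39% in spared and 1.10% in control cells. Leaving Lars2 out of the totals gave 361 higher and 187 lower genes over all cells, and no such count is given for Calca-high cells. The cause of this share was not tested.

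The study drew its gene lists from cells of this series. The blue module and the classes I to IV come from day-3 cells. The gray, magenta and orange modules come from large myelinated neurons of both days, so they are not independent of the cells compared here. Median log2 ratios were -0.14 for the blue, 0.09 for the orange, 0.35 for the magenta and -0.21 for the gray module. In Atf3-high over the same control cells they were 0.99, 1.76, 1.29 and -2.04. The classes I to IV had medians of -0.33, 0.15, -0.31 and -0.02 in spared cells, against -1.96, -0.77, 0.39 and 1.12 in Atf3-high cells. Class I held 18 lower genes beyond 2-fold of 83 measured (21.7%, against 2.27% of all genes), among them Trpa1, Isl2, N28178 and Htr4. Its median was 0.09 in Calca-high cells, 0.24 in cells with high Apoe, -0.495 in remaining cells and -1.15 in cells with low Apoe. The gray module held 33 lower genes of 331 (9.97%, against 2.27%), with Htr3b and Coro1a, and the orange module 25 higher genes of 241 (10.4%, against 3.186%).

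At day 3, the libraries came from CAST/Eij x C57BL/6 crossbred mice, the labels name L5 DRGs, and reads were of 50 bp. There, 11 injured-side cells held less than 100 CPM of Atf3, and 10 of them were Calca-high, as were 12 of 18 control-side cells. These cells differed beyond 2-fold in 127 higher (1.33%) and 222 lower (2.33%) of 9514 genes. Of the 154 genes higher at day 7 in both sexes, 73 were measured at day 3, with 27 higher and 3 beyond 2-fold. Of the 81 lower genes 64 were measured, with 30 lower and 10 beyond 2-fold. Within Calca-high cells, 434 of the 678 genes higher at day 7 were measured at day 3, with 211 higher and 19 beyond 2-fold, beside 1.48% of all genes higher beyond 2-fold there. Of the 290 lower genes 226 were measured, with 127 lower and 31 beyond 2-fold, beside 2.19% of all genes. Of the lower genes without overlap, Tagln2 (-1.64), Htr3b (-1.53), Fbxo2 (-1.70), Mfge8 (-1.61) and Susd2 (-1.22) were lower beyond 2-fold at day 3 too. Coro1a (-0.34), Abhd2 (-0.56), Csdc2 (-0.92), N28178 (-0.35), Pkib (-0.22) and Tifa (-0.22) were not. Brms1 (0.07), Mta3 (0.13) and Ebp (0.24) were above 0. Among the higher ones, Marcks (0.41) and Cpne3 (0.06) were not beyond 2-fold. These single-gene ratios carry no filter on level at day 3. The median of the cholesterol genes was -0.16 at day 3, with 13 of 16 below 0. Day, strain of mouse, ganglion level and read length cannot be told apart in this comparison.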

How the data were processed

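Sequencing reads of single DRG neurons were processed by the authors, whose notes name CASAVA 1.8.2, Bowtie2, RSEM and the build mm9. The deposited tables are named TPM, but columns differ in total and 90.6% of values above 0 in the compared cells are whole, so they were taken as the RSEM expected counts that the authors deposited. No test for counts was applied, since each side is 1 sample. Values were divided by the column sum and multiplied by 1000000 (CPM), without correction for length. Outliers removed by the authors were left out at day 7, and 6 columns of pooled neurons were not used. Amplified copies are counted, because the libraries carry no molecular identifiers.

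Genes whose mean reached 10 CPM on either side were compared by the log2 ratio of the mean CPM + 1, and a ratio of 1 or more in size is beyond 2-fold. Medians are given for lists with at least 5 measured genes, and for smaller ones as a description only. Shares carry exact Clopper-Pearson and summed counts exact Poisson intervals of 95%, and a share of 0 carries the limit that 3 counts give. Genes named are those of the lists, those the study names, and the 12 largest differences in each direction beyond 2-fold in both sexes, with the medians differing alike and at least 5 cells of the higher side at 10 CPM or more. Others were chosen after their values were seen. The members and lists were chosen with earlier results of these data known. Code was tested on simulated data. Analyses used Python 3.11.15 with numpy 2.4.6, pandas 2.3.3, scipy 1.17.1 and matplotlib 3.10.9. Other scalings, filters, sexes and kinds of cell were tried, and their effect is given at the end. Results for some genes are not reported here.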

Additional observations from a re-analysis of the deposited data

How the results depend on the processing

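Of 30 list medians 21 took both signs across the alternatives. They ran from -2.17 to 3.09 for peptidergic, -1.78 to 0.92 for glial, -0.26 to 2.45 for large myelinated markers and -1.50 to 2.44 for neuropeptides, and from -0.99 to -0.39 for cholesterol synthesis. A pseudocount of 10 gave 139 higher and 90 lower genes (58 and 26 in both sexes). A filter at 1 CPM, like no filter, gave 731 and 410 (298 and 138 in both sexes). Medians over cells in place of means gave 407 lower genes (85 higher and 126 lower in both sexes), so that higher genes made up 36.01% of those beyond 2-fold in place of 58.4%, and the neuropeptide median became -1.50. Females alone gave 527 higher and 519 lower genes (480 and 449 without control replicate 7). Their median for general sensory neuron markers was -0.56, and males alone gave 362 lower genes. Leaving out control replicate 7 gave 295 and 209.

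Subsets of cells moved more values. Cells above the median Nefh gave 462 and 559 genes (270 and 292 in both sexes), medians of -0.54 for general sensory and -1.53 for MHC class I genes, and a Pam ratio of -0.0082. Cells at or below it gave 568 and 377 genes, medians of -0.65 for general sensory and -0.29 for synaptic genes, and ratios of -1.001 for D430041D05Rik, -0.93 for Spp1 and -1.93 for Ndst4. Without cells that held 10 CPM or more of Pvalb, Pvalb was at -0.52 and D430041D05Rik at -0.40. Cells with at least 100 CPM of Scn10a gave 672 and 370 genes (274 higher in both sexes) and Spp1 at -0.22. Cells with less gave 564 lower genes (284 in both sexes), an MHC median of -1.55, Pdlim2 at 0.31 and Arhgap36 at 0.87.

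Calca-high cells gave 678 higher genes (290 in both sexes) and Spp1 at -0.37. Remaining cells gave 186 and 487 genes (42 and 165 in both sexes), a general sensory median of -0.45 and D430041D05Rik at -0.70. Without Pvalb-high cells 86 and 44 genes passed in both sexes, with D430041D05Rik at -0.47, Spp1 at -0.32 and Ndst4 at -0.12. Cells with high Apoe gave 83 higher genes in both sexes. Cells with low Apoe gave 676 and 683 genes (383 and 187 in both sexes), medians of -1.19 for class I and 0.34 for class IV, and ratios of 1.44 for Kcng4, 1.07 for Mfge8 and 0.89 for Arhgap36. The cause of these shifts was not tested.

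Counted at 1 CPM, Th was present in 50.0% of control cells, Pvalb in 71.4% of spared and 57.1% of control cells, and P2rx3 in 76.2% and Apoe in 95.2% of spared cells. At 100 CPM, Pvalb was in 0% and P2rx3 in 28.6% of control cells and Apoe in 47.6% of spared cells. With outliers included, day 3 gave 451 higher genes. Alternatives were run for 62 genes, the 12 largest in each direction and those alike in both kinds of cell. Of these, 53 kept their direction under every alternative tried and the others are given above. Other named genes are outside that number, and Kcnq5, Ina, Oprk1 and Gal are among those whose direction differed between subsets.

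No paired analysis was possible because replicate numbers only name cells, no label ties cells of the 2 sides to 1 mouse and the results come from no test. Values within each sex are given with the results. With 1 sample a side and no animal named, differences between cells and between mice cannot be told apart, and the splits by kind, Apoe and sex of control replicate 7 were added after the data were seen. Low genes are limited by depth, since the shallowest spared library held 261351 counts.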
